A study of Mus musculus with 6 samples.

Results

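Intestinal RNA of mice that lack SHP and of wild-type mice was examined for the genes of 7 transcription factors that pattern the gut from front to back: Gata4, Gata5, Gata6, Cdx1, Cdx2, Onecut2 and Pdx1. They were taken by name, as listed, from count files that hold 23284 genes, and each of the 7 was found there. The series has 6 libraries in 2 groups, 3 from SHP-KO mice and 3 from wild-type (WT) mice. Nr0b2 encodes SHP, a nuclear receptor without a DNA-binding domain that represses other receptors in liver and gut. Both groups were male mice, 8 weeks old, that had gone without food overnight and then had food again for 6 h. The tissue of both was intestine, with jejunum and ileum named together and no share given for either. How the Nr0b2 allele was made, and whether a library came from 1 animal or several, is not given in the sources used here.

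GATA factors are zinc finger proteins that bind DNA at GATA motifs, and CDX factors are homeodomain proteins that bind T-rich motifs. In the mouse, GATA4 is present in the epithelium of duodenum and jejunum, falls away towards the distal ileum, and holds ileal genes silent in jejunum together with FOG cofactors. CDX2 establishes and maintains intestinal identity, and PDX1 marks the duodenum, the gastric antrum and the pancreas. The comparison asks which of these genes differ in refed intestine when SHP is absent.

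Total counts were between 7956528 and 9289543 in SHP-KO libraries and between 11265437 and 13511800 in WT libraries. Nr0b2 had 1, 0 and 0 counts in SHP-KO replicates 1 to 3, against 31, 14 and 23 counts in WT replicates 1 to 3. The ratio of summed counts, scaled by library size, put Nr0b2 45.6-fold lower in SHP-KO, with a 95% counting interval of 7.92 to 1829. In these libraries 70.6% of 12106 tested genes passed an adjusted p of 0.05 (edgeR quasi-likelihood test), 35.2% higher and 35.4% lower in SHP-KO, and the groups' levels did not overlap for 72% of tested genes. A call is therefore common here, and the size of a change says more than the call. The common coefficient of variation (CV) estimated between libraries of a group was 0.0297. Since separate animals are not stated, the p-values reflect how these libraries vary, and that variation may be technical.

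GATA genes were higher in SHP-KO and CDX genes lower. Of the 7 factors 6 passed the filter on low counts, and each of these 6 passed the test, 4 higher (Gata4, Gata5, Gata6 and Onecut2) and 2 lower (Cdx1 and Cdx2), beside 70.6% of all tested genes. Gata4 and Cdx2 changed most among the 5 well-expressed factors, in opposite directions. In SHP-KO, Gata4 was 2.07-fold higher and Cdx2 was 1.89-fold lower. The changes of Gata5 (log2 0.32), Gata6 (log2 0.24) and Cdx1 (log2 -0.49) were smaller. Of the 6, Gata4 and Onecut2 changed at least 2-fold, beside 20% of all tested genes. Onecut2 passed the count filter through its SHP-KO libraries, so it could be tested at all because it was high there.

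Gata4, the factor that separates jejunal from ileal gene expression in mouse, is on chromosome 14 from 63817752 to 63864097 (mm9, minus strand, 7 exon intervals). It was at 97.4, 93.1 and 97.9 CPM (read counts scaled to library size by the TMM method) in SHP-KO replicates 1 to 3, against 46.6, 44.0 and 48.7 CPM in WT replicates 1 to 3. Every SHP-KO library was above every WT library, and the gap between the groups was many times the spread within either. The log2 fold change was 1.05 (SE 0.053, adjusted p 6.9e-32, edgeR quasi-likelihood test). RNA was taken from whole tissue, where more cells of a kind and more RNA per cell cannot be told apart. A different share of jejunum and ileum cannot be told apart from loss of SHP either, for Gata4 or for any other gene reported here.

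Gata5, expressed in gut epithelium, is on chromosome 2 from 180059793 to 180069384 (mm9, minus strand). Its levels were 164.9, 185.2 and 171.8 CPM in SHP-KO and 137.0, 143.4 and 138.5 CPM in WT. SHP-KO replicate 2 was the highest library and replicate 1 the lowest of its group, still above the WT libraries (log2 fold change 0.32, SE 0.039, adjusted p 6.7e-12, edgeR). Of its 3302 exonic bases, 258 (7.81%) are shared with Gm14318 on the plus strand, where reads could not be assigned because strand was not used. Gm14318 itself had 41 counts in all SHP-KO libraries and 29 in all WT libraries.

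Gata6, which is expressed along the whole small intestine and also in smooth muscle, lies on chromosome 18 from 11052508 to 11085633 (mm9, plus strand). It had 61.7, 62.9 and 61.3 CPM in SHP-KO libraries, against 52.2, 54.2 and 50.7 CPM in WT libraries. The groups did not overlap, and the difference was the smallest among the tested factors (log2 fold change 0.24, SE 0.058, adjusted p 0.00012, edgeR). All 8 smooth muscle markers examined rose in the same libraries (Acta2, Flna, Des and 5 others), with a summed level of 1074 to 1124 CPM in SHP-KO and 229.1 to 235.9 CPM in WT. Their part in the result for Gata6 was not tested.

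Cdx2, the homeodomain factor that maintains intestinal identity, spans 148112476 to 148118825 on chromosome 5 (mm9, minus strand, 3 exon intervals). Levels of Cdx2 were 192.7, 186.9 and 196.5 CPM in SHP-KO replicates 1 to 3, against 353.8, 373.3 and 363.4 CPM in WT replicates 1 to 3. The highest SHP-KO library stood far below the lowest WT library (log2 fold change -0.92, SE 0.033, adjusted p 1.1e-42, edgeR). Cdx1, its close relative, which is strongest in crypts, is on chromosome 18 from 61178516 to 61195853 (mm9, minus strand). It was at 103.8, 110.7 and 101.9 CPM in SHP-KO and 150.1, 148.6 and 147.1 CPM in WT. Both genes fell, Cdx1 by 0.49 on the log2 scale (SE 0.041, adjusted p 3.5e-19, edgeR) and Cdx2 by 0.92. Among 8 stem and dividing cell markers 6 fell in these libraries, including Top2a, Mki67 and Axin2, while Lgr5 and Smoc2 rose. Ascl2, among the 6 that fell, was kept by the count filter through its WT libraries alone, and Lgr5 through its SHP-KO libraries alone. The part of crypt cells in the result for Cdx1 was not tested.

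Onecut2, a cut homeodomain relative of HNF6, was a low transcript that rose. The gene is on chromosome 18 from 64500018 to 64558142 (mm9, plus strand). It had 29, 25 and 28 counts in SHP-KO replicates 1 to 3, against 3, 2 and 2 counts in WT replicates 1 to 3, that is 3.21 ± 0.48 CPM in SHP-KO and 0.18 ± 0.034 CPM in WT (SD, n = 3 each). Every WT library was at or under 3 counts. The ratio of summed counts, 82 against 7, was 17.4-fold when scaled by library size, with a 95% interval of 8.10 to 44.8 that covers counting error only. In edgeR's quasi-likelihood test the log2 fold change was 4.04 (SE 0.41, adjusted p 6.1e-15). The count filter kept Onecut2 through its SHP-KO libraries alone, so that p-value comes from a gene tested only because it was high there. Its paralog Onecut1 had no counts in any of the 6 libraries, and Onecut3 had 11 counts in all SHP-KO libraries and 1 in all WT libraries. Enteroendocrine markers were higher in the same libraries, 5 of 5 tested (among them Chga, Chgb and Pax6), with a summed level of 186.4 to 198.1 CPM in SHP-KO and 54.3 to 56.3 CPM in WT, and markers of enteric nerves and glia rose in 5 of 5 tested (Hand2, Prph and Tubb3 at the smallest p). Of the enteroendocrine markers, Insm1 did not pass without SHP-KO replicate 2, WT replicate 1 or WT replicate 3 (largest adjusted p 0.15, edgeR). The part of these cells in the result for Onecut2 was not tested.

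Pdx1, the factor of duodenum and pancreas, was near the limit of detection in both groups and was not tested. It had 1, 1 and 0 counts in SHP-KO replicates 1 to 3 and 0 counts in each WT library, which allows up to 0.22 to 0.26 CPM in a WT library (3 counts, counting error only). It lies on chromosome 5 from 148081707 to 148086725 (mm9, plus strand), 25750 bases from Cdx2. Markers of duodenal glands and stomach summed to 0.66 to 1.78 CPM in SHP-KO and 0.15 to 0.18 CPM in WT. Among them Muc6 had 11, 4 and 13 counts in SHP-KO replicates 1 to 3 and 1, 1 and 2 counts in WT replicates 1 to 3, and was not tested. Tff1, Muc5ac, Gkn1 and Gif were at 0 counts in all libraries. Of 10 pancreas markers Ins1, Ins2, Amy2b, Ptf1a and Nkx6-1 had no counts, Iapp rose, and Cela1 was at 7.17 ± 1.78 CPM in SHP-KO and 7.37 ± 0.62 CPM in WT (SD, n = 3 each, adjusted p 0.79, edgeR).

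**Figure D1:**
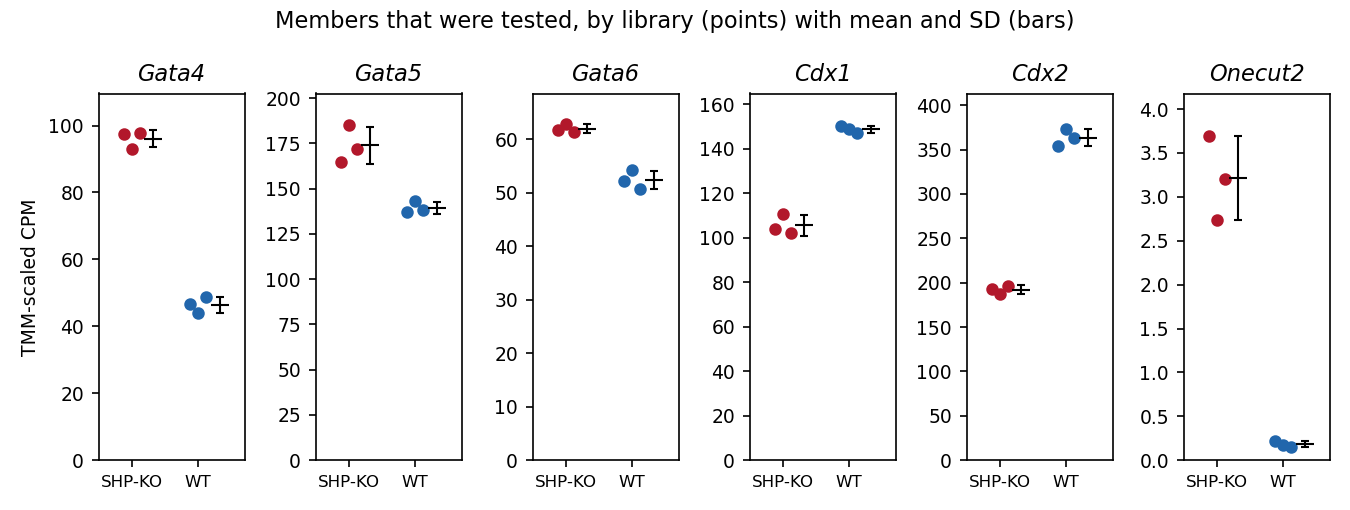
TMM-scaled CPM (linear axes from 0, one panel per gene) of the 6 tested factors in 3 SHP-KO and 3 WT libraries. Points are libraries, and the bars beside them are the mean and SD. Gata4, Gata5, Gata6 and Onecut2 are higher and Cdx1 and Cdx2 lower in SHP-KO, with no overlap of the groups.

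Levels per gene length, in TPM (read counts divided by gene length and scaled to a common total), ranked the factors within each group. In SHP-KO libraries the order was Cdx2 (152.9 ± 3.54 TPM), Cdx1 (102.9 ± 4.69), Gata5 (90.0 ± 5.35), Gata4 (48.4 ± 1.27), Gata6 (33.1 ± 0.50) and Onecut2 (0.41 ± 0.061), as mean ± SD over 3 libraries. The WT order was Cdx2 (294.8 ± 8.45 TPM), Cdx1 (147.7 ± 1.56), Gata5 (73.5 ± 1.90), Gata6 (28.5 ± 1.01), Gata4 (23.8 ± 1.15) and Onecut2 (0.024 ± 0.0045). Neighbours in either order did not overlap between libraries. Gata4 and Gata6 thus changed places, with Gata4 above Gata6 in each SHP-KO library and below it in each WT library. The 3 GATA genes together reached 171.5 ± 4.52 TPM in SHP-KO and 125.9 ± 1.82 TPM in WT, and the 2 CDX genes together 255.8 ± 1.16 TPM in SHP-KO and 442.4 ± 8.20 TPM in WT. Of the summed GATA level, Gata4 made up 28.2% ± 1.45 in SHP-KO and 18.9% ± 1.12 in WT, while Gata5 made up 52.4% ± 1.72 in SHP-KO and 58.4% ± 0.66 in WT. Cdx1 contributed 40.2% ± 1.65 of the summed CDX level in SHP-KO and 33.4% ± 0.74 in WT (SD, n = 3 each).

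Ratios between 2 factors in the same library do not depend on how libraries are scaled. The length-scaled ratio of Gata4 to Gata6 was 1.46 in SHP-KO and 0.83 in WT (geometric means), with log2 values of 0.57, 0.48 and 0.59 in SHP-KO replicates and -0.25, -0.39 and -0.15 in WT replicates. For Gata4 to Cdx2 the ratio was 0.32 in SHP-KO and 0.081 in WT, a difference of 1.97 on the log2 scale and the widest of the 7 ratios computed. Cdx1 to Cdx2 differed by 0.43, at a ratio of 0.67 in SHP-KO and 0.50 in WT. Gata5 to Gata6 stood at 2.71 in SHP-KO and 2.58 in WT, and their libraries overlapped (two-sided exact permutation p = 0.2). The other 6 ratios separated the groups without overlap at a two-sided exact permutation p = 0.1, the smallest that 3 against 3 libraries allow, and 0.117 after Benjamini-Hochberg adjustment over the 7. Gata4 therefore changed relative to Gata5 and Gata6 by more than the spread between libraries, a difference that this design cannot carry past 0.05 in that test.

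**Figure D2:**
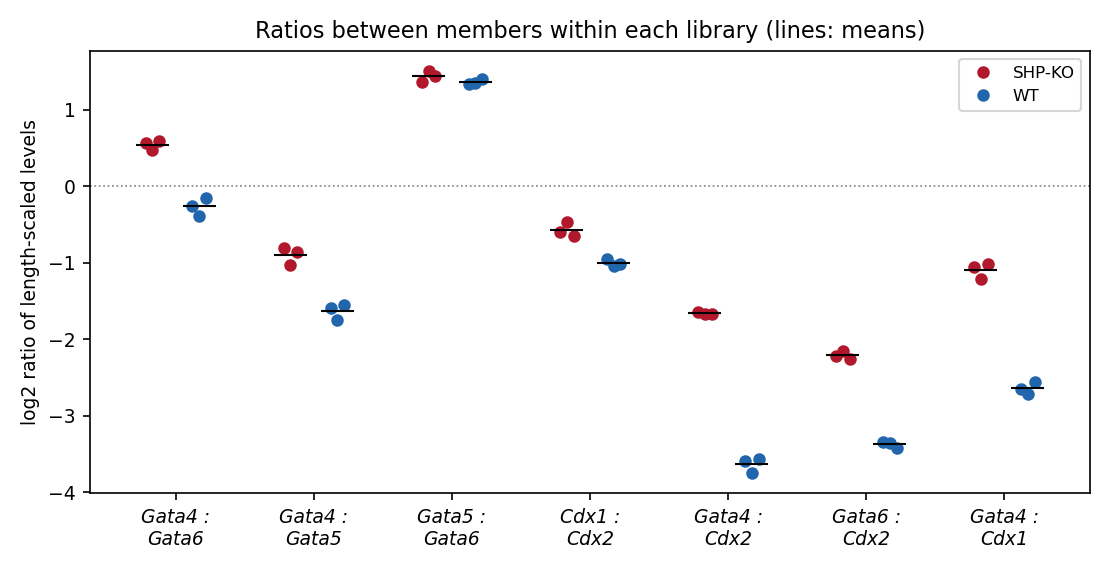
Log2 ratios of length-scaled levels of 2 factors in the same library, for 7 ratios, with 3 SHP-KO libraries (left of each pair) and 3 WT libraries (right). Points are libraries, short lines are means and the dotted line marks equal levels. Gata4 is above Gata6 in SHP-KO and below it in WT, and the ratio of Gata4 to Cdx2 differs by 1.97.

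Genes that other work in mice places under these factors moved with them in part. Lct (intestinal lactase) and Fabp1 (a fatty acid carrier), which need GATA4 for full expression in mouse jejunum, were both higher. Lct was at 2277, 2370 and 2357 CPM in SHP-KO and 428.2, 458.8 and 435.5 CPM in WT, and Fabp1 at 2180, 2213 and 2205 CPM in SHP-KO and 126.4, 123.3 and 131.2 CPM in WT (log2 fold changes 2.41 and 4.11). Of 5 ileal genes that rise in mouse jejunum without GATA4, 4 fell and 1 rose. Fabp6, the ileal bile acid carrier, had a log2 fold change of -6.22, and Osta, Ostb and Fgf15 had -1.51, -1.61 and -0.43. Slc10a2, the apical bile acid importer, went the other way at log2 1.14. Fgf15 did not pass the exact test with an assumed CV of 0.2 (adjusted p 0.15, edgeR).

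Genes reported as direct CDX2 targets were mostly lower, some by little. Of 8 tested, 7 fell and Krt20 rose. Their median log2 fold change was -0.29, beside -0.012 over all tested genes. Sis, the sucrase-isomaltase of the brush border, was at 1592 ± 33.0 CPM in SHP-KO and 3753 ± 3.03 CPM in WT (SD, n = 3 each). Cldn2, a tight junction protein, and Isx, a homeobox factor, had log2 fold changes of -4.74 and -1.03. The small falls of Cdh17, Gpa33 and Gucy2c (log2 -0.13, -0.082 and -0.16) did not pass when libraries were scaled by epithelial marker counts, where Gpa33 turned to 0.023, and Gpa33 did not pass without SHP-KO replicate 1 or WT replicate 2 either (largest adjusted p 0.090, edgeR). With an assumed CV of 0.2, 3 of the 8 passed, all lower.

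Promoter sequences are shown for 4 of these genes that moved widely: Lct, which rose, Sis and Fabp6, which fell, and Slc10a2, which rose although Fabp6 fell. They are the 250 bases before the annotated start, 5′ to 3′ on the gene's strand, from RefSeq on GRCm38.p6, at chr1:128328319-128328568 (Lct, minus strand), chr3:72967864-72968113 (Sis, minus strand), chr11:43601563-43601812 (Fabp6, minus strand) and chr8:5105288-5105537 (Slc10a2, minus strand). Capitals mark GATA hexamers, spelled AGATAA, in another form AGATAG, in another form TGATAA or in a last form TGATAG, and the pentamer TTTAT of CDX motifs, each on either strand. The pentamer read on the opposite strand, ATAAA, is also part of many TATA boxes, and adjacent or overlapping matches run together.
Lct: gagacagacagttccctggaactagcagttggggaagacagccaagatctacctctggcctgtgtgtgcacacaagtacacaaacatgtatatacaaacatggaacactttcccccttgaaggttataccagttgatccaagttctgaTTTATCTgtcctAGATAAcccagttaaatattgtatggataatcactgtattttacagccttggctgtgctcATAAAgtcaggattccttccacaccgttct
Sis: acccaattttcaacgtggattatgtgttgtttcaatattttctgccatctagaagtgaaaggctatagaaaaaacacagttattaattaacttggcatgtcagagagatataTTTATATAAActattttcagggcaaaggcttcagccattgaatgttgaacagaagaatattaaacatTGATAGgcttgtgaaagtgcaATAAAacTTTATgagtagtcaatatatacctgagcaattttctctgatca
Fabp6: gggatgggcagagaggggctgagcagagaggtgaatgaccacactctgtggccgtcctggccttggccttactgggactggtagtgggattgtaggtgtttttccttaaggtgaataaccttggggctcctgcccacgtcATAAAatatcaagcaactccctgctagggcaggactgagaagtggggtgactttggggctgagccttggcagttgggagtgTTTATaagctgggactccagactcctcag
Slc10a2: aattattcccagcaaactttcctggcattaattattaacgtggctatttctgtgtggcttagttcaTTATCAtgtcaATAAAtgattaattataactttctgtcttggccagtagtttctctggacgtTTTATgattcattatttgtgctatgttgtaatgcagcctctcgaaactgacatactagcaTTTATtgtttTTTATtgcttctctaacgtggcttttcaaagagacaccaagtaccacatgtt
The Lct window holds 2 GATA hexamers, which begin 101 and 90 bases before the start, and 2 pentamers. The first hexamer overlaps a TTTAT that begins 102 bases before the start, and the other pentamer, ATAAA, begins 30 bases before it. Sis holds 1 GATA hexamer, 71 bases before the start, and 4 pentamers. Fabp6 holds no GATA hexamer and 2 pentamers, and Slc10a2 holds 1 GATA hexamer and 4 pentamers. Such matches are frequent: 26.5% of 32851 promoter windows of the same length hold a GATA hexamer, 37.3% the pentamer and 15.3% both. The windows of Gata5, Cdx2 and Pdx1 hold neither motif, and Gata4 has no entry in the promoter table. Fabp1, which rose more than Lct, holds no GATA hexamer and 5 pentamers. The window listed as Slc51a (Osta) holds 1 GATA hexamer and no pentamer, and that of Slc51b (Ostb) holds neither. A match says only that these letters are present.

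Wider sets of segment markers moved in the same libraries. Among 12 markers of the upper small intestine 10 rose, Slc40a1 fell and Slc11a2 did not pass unless epithelial marker counts set the scale (median log2 fold change 2.28), with Fabp1, Apoa4 and Lct at the smallest p. Among 14 ileal markers 8 fell and 6 rose (Slc10a2, Amn, Pyy, Nts, Enpp3 and Slc9a3), with a median of -0.52, and Fabp6, Tmigd1 and Osta had the smallest p. With an assumed CV of 0.2, 6 of the 14 were lower, 4 were higher and 4 did not pass, among them Pyy and Nts. Summed levels of the upper set were 33278 to 33553 CPM in SHP-KO and 7415 to 7515 CPM in WT. Those of the ileal set were 4537 to 4587 CPM in SHP-KO and 19231 to 19588 CPM in WT. A single gene made up much of the larger sum of each set. Apoa4 had a mean of 18859 CPM in SHP-KO and 3525 CPM in WT, and Fabp6 144.5 CPM in SHP-KO and 10792 CPM in WT. Gcg, among the 8 that fell, did not pass without SHP-KO replicate 1 or without WT replicate 3 (largest adjusted p 0.087, edgeR). The 4 tested colon markers, Car4, Slc26a3, Saa1 and Ang4, fell too, while Car1 had no counts.

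Cofactors and other factors of the gut epithelium did not share one direction. Zfpm1, which encodes FOG1, the GATA cofactor, rose. It was at 58.3, 57.1 and 61.6 CPM in SHP-KO and 12.7, 13.4 and 11.7 CPM in WT (log2 fold change 2.23, SE 0.077, adjusted p 5.9e-44, edgeR), a larger change than that of any GATA gene tested. Zfpm2 (FOG2) had 1 count in SHP-KO and 2 in WT, and the blood GATA genes Gata1, Gata2 and Gata3 had at most 12 counts over a group and were not tested. Of 17 other epithelial factors tested 11 fell, 3 rose and 3 did not pass (median log2 fold change -0.40). Hnf4a, a nuclear receptor that drives enterocyte genes, was at 494.0, 499.2 and 490.6 CPM in SHP-KO and 817.4, 793.3 and 815.5 CPM in WT (log2 fold change -0.71). Klf5, Maf and Foxa1 had log2 fold changes of -0.73, -0.71 and -0.83, and Sox9, a crypt factor, and Nr5a2, a partner of SHP in bile acid control, both had -1.49. The 3 that rose were Creb3l3, Foxa3 and Tcf7l2 (log2 0.60, 0.86 and 0.79). With an assumed CV of 0.2, 3 of the 17 were higher and 7 lower. Hnf4g, one of the 11, did not pass without SHP-KO replicate 2 (adjusted p 0.056, edgeR).

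**Figure D3:**
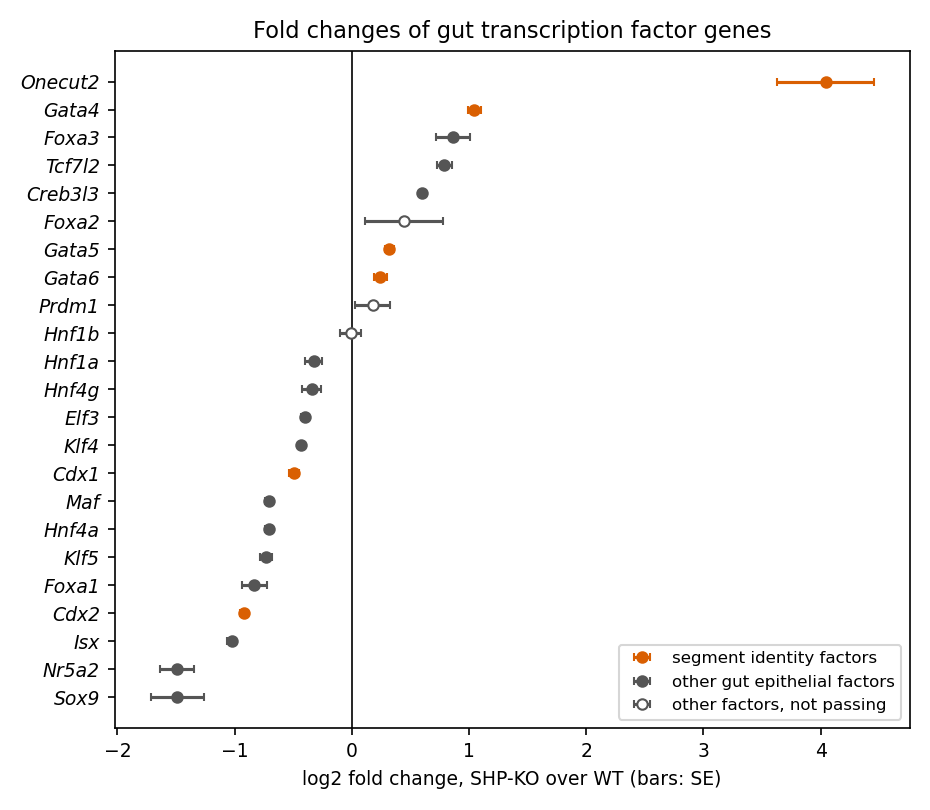
Log2 fold changes (SHP-KO over WT, bars are SE) of the 6 tested segment identity factors (orange) and 17 other gut epithelial factors (grey), sorted by value, where open points did not pass an adjusted p of 0.05. Onecut2 and Gata4 stand at the top, and Cdx2 lies near Isx among the factors that fell.

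Hox genes, the other patterning genes of the body axis, were low in these libraries, and 12 of 39 passed the count filter. Several were kept by the group in which they are high, so no count of directions is read from the Hox genes tested. Hoxa5, Hoxb2, Hoxc4 and Hoxc6 reached the filter's 0.973 CPM in the 3 SHP-KO libraries and in no WT library, and Hoxb9 in the 3 WT libraries and in no SHP-KO library. Hoxb4 and Hoxc8 reached it in 1 WT library, and Hoxb7 and Hoxb8 in 2 SHP-KO libraries. Hoxb3, Hoxb5 and Hoxb6 reached it in all 6 libraries. Hoxb2, Hoxb3, Hoxb4 and Hoxb5 had log2 fold changes of 2.08, 0.68, 1.17 and 0.83, against -0.86, -1.81, -1.003 and -3.97 for Hoxb6, Hoxb7, Hoxb8 and Hoxb9. Hoxb9 was at 0.13, 0.44 and 0.11 CPM in SHP-KO and 3.58, 4.21 and 3.70 CPM in WT, and without SHP-KO replicate 2 its log2 fold change was -4.86. Fitted log2 fold changes outside Hoxb were 2.51 for Hoxa5, 2.85 for Hoxc4, 2.23 for Hoxc6 (2.82 without WT replicate 1) and 1.60 for Hoxc8. With an assumed CV of 0.2, Hoxb3 and Hoxb5 did not pass (adjusted p 0.17 and 0.064, edgeR). Hoxb3 did not pass without SHP-KO replicate 2, WT replicate 2 or WT replicate 3, nor Hoxb6 without WT replicate 3 (largest adjusted p 0.32 and 0.19, edgeR). Smooth muscle and nerve markers rose in the same libraries, and their part in the Hox results was not tested.

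**Figure D4:**
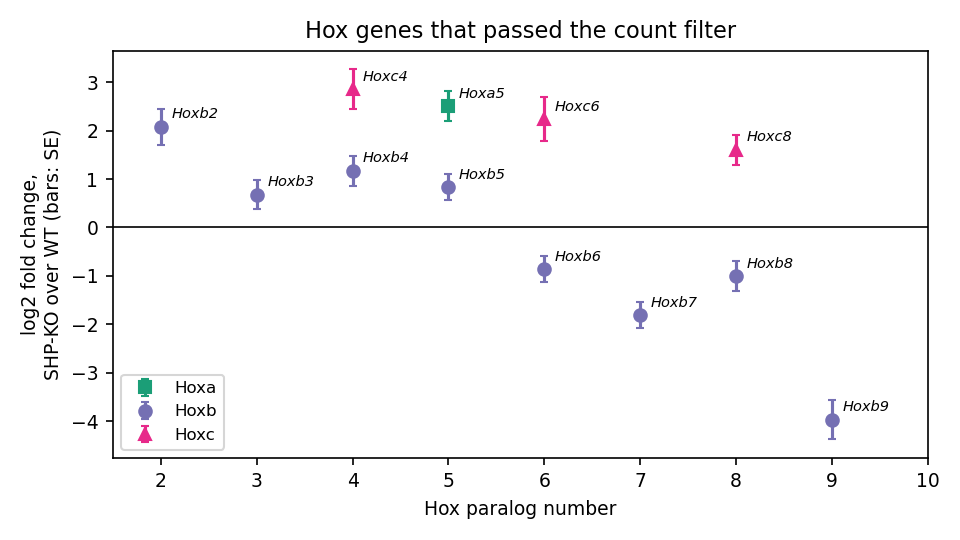
Log2 fold changes (SHP-KO over WT, bars are SE) of the 12 Hox genes that passed the count filter, by paralog number, with squares for Hoxa, circles for Hoxb and triangles for Hoxc. Hoxa5, Hoxb2, Hoxc4 and Hoxc6 were kept by the SHP-KO libraries alone and Hoxb9 by the WT libraries alone, so no pattern of directions is read. Hoxb13 was not tested and is not drawn.

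The genes whose pattern was nearest to each factor were sought among 7429 tested genes with a mean of at least 10 CPM, by the Euclidean distance of centred log2 CPM over the 6 libraries. Nearest to Gata4 were Prpf38b, Tomm34 and Baz2b (distances 0.082 to 0.098), and nearest to Cdx2 were Rpl36a, Vwa1 and Slc34a2 (0.050 to 0.065). Cdx1 was followed by Bhlhe40, Hdgf and Myl12b, Gata5 by Ccdc124, Tspan5 and Agap3, and Gata6 by Lrrc59, Cox6a1 and Cnst (0.027 to 0.050 in all). For Onecut2 the nearest were Atxn7l2, Col6a1 and Casp6, farther off at 0.22 to 0.24. Distances used a pseudocount of 0.5 CPM, which lowers the fold of a scarce gene such as Onecut2, and all genes share the same 6 libraries.

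Markers of epithelium were abundant and uneven. Epcam, an epithelial adhesion protein, was at 4394 ± 43.7 CPM in SHP-KO and 4312 ± 82.8 CPM in WT (SD, n = 3 each) and did not pass (adjusted p 0.26, edgeR). Of the 8 epithelial markers 2 rose (Krt18 and Vil1) and 5 fell (Krt19, Cldn3, Cldn7, Cdh1 and Krt8), the last of which did not pass when scaled by epithelial marker counts. With an assumed CV of 0.2, Krt19 and Cldn3 passed as lower and the other 6 did not pass. Per 10000 reads of these 8 markers, Gata4 had 54.7 ± 1.46 reads in SHP-KO and 24.6 ± 1.22 in WT, and Cdx2 had 109.4 ± 2.64 in SHP-KO and 192.5 ± 6.32 in WT. That scaling moved the median log2 fold change of all genes by 0.11, with Gata4 at log2 1.15 and Cdx2 at -0.82. A change of scale moves every gene by about the same amount, so these values are no separate test of Gata4 or Cdx2. Fibroblast markers rose in 5 of 6 tested (Col3a1, Col1a1 and Col1a2 at the smallest p) and 7 of 7 B cell markers fell (among them Cd79a and Cd79b), though all 7 were kept by their WT libraries alone. B cell markers summed to 1.02 to 1.38 CPM in SHP-KO and 75.1 to 79.1 CPM in WT. Pax6, Lgr5, Iapp and Esam were kept by the SHP-KO libraries alone, and Saa1 and Msln by the WT libraries alone. Endothelial markers gave 3 higher (with Esam and Eng), 1 lower (Tie1) and 1 not passing of 5. Mesothelial cells express GATA factors in mice. Of 6 mesothelial markers 2 were tested, Msln and Upk1b, and both fell (log2 -2.89 and -0.78). Upk3b, Lrrn4, Wt1 and Krt5 had at most 5 counts over a group. The part of mesothelial cells in the results for the GATA genes was not tested.

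The authors' deposited table, whose values an edgeR exact test with an assumed CV of 0.2 and TMM scaling gave to within 5.3e-15 on the log2 scale, holds the 6 tested factors. There Gata4, Cdx2 and Onecut2 passed, with log2 fold changes of 1.03, -0.94 and 4.03 and adjusted p-values of 0.00016, 0.00055 and 1.1e-14 in the authors' deposited table. Gata5, Gata6 and Cdx1 did not pass in the authors' deposited table (log2 0.30, 0.22 and -0.51, adjusted p 0.35, 0.51 and 0.082), where 34.6% of 12939 genes passed. That test differs from the one used here in its assumed spread, its statistic and its filter, which were not separated. The direction of these 3 factors was the same in both.

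**Figure D5:**
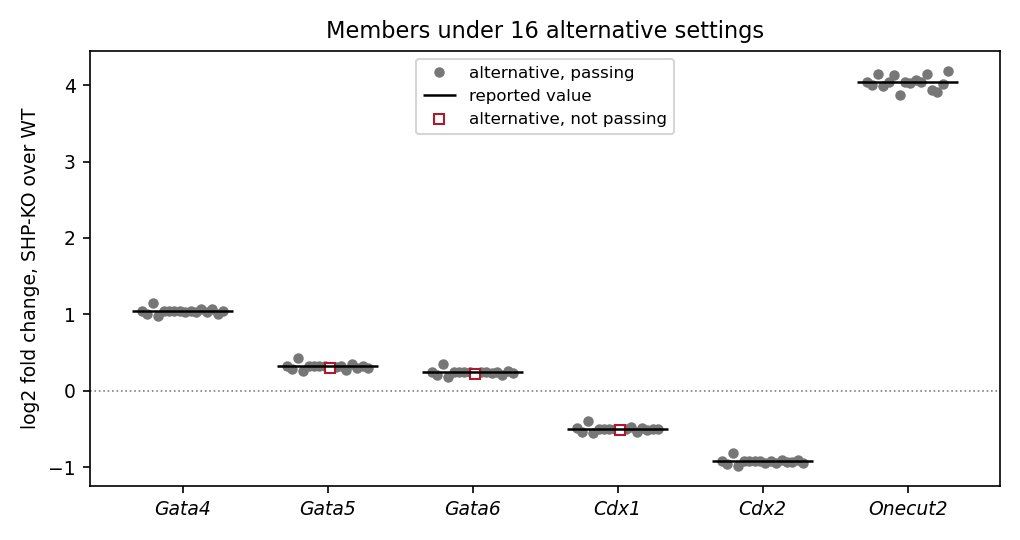
Log2 fold changes (SHP-KO over WT) of the 6 tested factors under 16 alternative settings (points) beside the reported value (line). Open squares did not pass an adjusted p of 0.05, which happened for Gata5, Gata6 and Cdx1 with an assumed CV of 0.2, and no value crosses 0.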

How the data were processed

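RNA of 3 SHP-KO and 3 WT libraries was sequenced. STAR 2.6.0c, Trimmomatic 0.38, edgeR and the mm9 build are named in the submitters' processing notes, with no roles or order. The deposited counts are whole reads per gene, made without strand over exons by featureCounts 1.5.2, per the file headers. The authors' deposited table gives log2 fold changes, log2 mean CPM, p-values and adjusted p-values.

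Of 23284 genes, 12106 passed filterByExpr of edgeR 4.0.16 (minimum count 10) in R 4.3.3 and were tested with TMM scaling and the robust quasi-likelihood test, with Benjamini-Hochberg adjustment over all of them and a threshold of 0.05. SE came from that fit, and TPM was computed from counts and the files' gene lengths. Depth ran over 7956528 to 13511800 counts per library and limits what low genes can show. Intervals and floors hold counting error alone. Motifs were searched in RefSeq promoters of GRCm38.p6, a build whose coordinates were not joined to the files. Alternatives were other scalings, filters and tests (DESeq2 1.42.0, limma 3.58.1), the replicate block and leaving out each library. The exact test on library totals alone was added after the data were seen. Figures used matplotlib 3.10.9.

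The members and gene lists were chosen with earlier results of these data known. Named were the members, list genes that bear on them, the 3 genes of smallest p in each list (some of these are not reported here), and the 3 genes nearest in pattern. Other list genes that went against their list, and Onecut1 and Onecut3, were picked after their values were seen.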

Additional observations from a re-analysis of the deposited data

How the results depend on the processing

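Of 96 recomputed log2 fold changes of the 6 tested factors, 93 kept their direction and their side of the threshold. The other 3 were Gata5, Gata6 and Cdx1 in the exact test with an assumed CV of 0.2, at log2 0.30, 0.22 and -0.51. That setting called 3 of the 6 factors and 4483 genes in place of 6 and 8543 (4523 genes on library totals alone). It differs in its assumed spread, its statistic and its filter at once, and the cause was not tested. Leaving out each library in turn gave 8260 to 8407 called genes and 6 to 6 called factors, with Gata4 at log2 1.00 to 1.07, Cdx2 at -0.95 to -0.90, Gata5 at 0.27 to 0.35, Gata6 at 0.21 to 0.26, Cdx1 at -0.53 to -0.47 and Onecut2 at 3.91 to 4.19. Scaling by epithelial marker counts gave 5070 higher and 3489 lower calls, against 4260 and 4283. The 7 ratios between factors kept their direction when each library was left out, with Gata4 to Cdx2 at 1.91 to 2.01 and Gata4 to Gata6 at 0.74 to 0.86. Same-numbered libraries of the groups deviated together little (correlations over genes of 0.022, 0.028 and -0.0054 for numbers 1 to 3, and SHP-KO replicate 3 did not correlate best with its own number), so the numbers were not taken as pairs. A fit with the replicate block called 8573 genes and 6 factors. Depth limits Pdx1, which was tested only without the filter and was not called there, and Onecut2 in WT.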

Other observations

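TALE homeobox genes, whose proteins bind DNA together with HOX and PDX1 proteins, went both ways. Meis1 was at 2.27 ± 0.35 CPM in SHP-KO and 0.37 ± 0.082 CPM in WT, and Meis2 at 3.13 ± 0.76 CPM in SHP-KO and 0.61 ± 0.16 CPM in WT (SD, n = 3 each). Both were kept by the count filter through their SHP-KO libraries alone, so they could be tested only because they were high there. Pbx2 and Tgif1 fell, with log2 fold changes of -0.35 and -0.83. Meis3 (log2 0.38) did not pass without SHP-KO replicate 1, SHP-KO replicate 2 or WT replicate 1 (largest adjusted p 0.12, edgeR).

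Of the 39 Hox genes, 13 had no counts in any library. Hoxb13, the most posterior Hoxb gene, had 11 counts in all SHP-KO libraries and 0 in all WT libraries, and Hoxd3 had 11 in SHP-KO and 1 in WT. Both were picked after their values were seen and were not tested.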
